A study of Mus musculus with 3 samples.

Results

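The genes described here are 10 immune checkpoint and costimulation genes, measured across the leukocytes of the mouse pancreas by single-cell RNA sequencing. They are a list of names with no threshold on a measured value, out of the 31053 genes counted in each library, and the list was drawn up with earlier results of these data known. There were 6 receptors found on lymphoid cells (Pdcd1, Ctla4, Tigit, Lag3, Havcr2 and Icos) and 4 ligands or costimulators found on antigen-presenting and myeloid cells (Cd274, Pdcd1lg2, Cd80 and Cd86). Levels were taken in barcodes with at least 1000 UMIs (unique molecular identifiers, each standing for 1 captured RNA molecule) and at most 30% mitochondrial UMIs. The 3 libraries came from wild-type C57BL/6 mice given PBS, or given WGP 3 days (3-day WGP) or 7 days (7-day WGP) before the pancreas was harvested. WGP is a hollow particle of beta-glucan made from yeast and was given as a single IP dose, and live CD45+ cells were sorted from the digested organ in every group. The study used young adult mice of both sexes. The labels do not say how many mice went into a library, nor of which sex. There was 1 library per group, so no test of a treatment effect was possible, and every interval below covers counting error only.

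Checkpoint receptors restrain an activated T cell, while costimulatory receptors sustain it, and both kinds read ligands on the cell that presents antigen. Pdcd1 encodes PD-1, which binds PD-L1 (Cd274) and PD-L2 (Pdcd1lg2). Ctla4 encodes the inhibitory receptor CTLA-4, which competes with the costimulatory receptor CD28 for the same ligands, CD80 and CD86. Lag3 encodes an inhibitory receptor that binds MHC class II, Havcr2 encodes TIM-3, Tigit encodes an inhibitory receptor for nectins, and Icos encodes a costimulatory relative of CD28 that is induced on activation. PD-L1 is known to be raised by interferons on many myeloid cells.

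The libraries held 52464690, 56849043 and 48219246 UMIs in the order PBS, 3-day WGP and 7-day WGP, and 5249, 4879 and 4174 barcodes were kept, with a median of 5755, 5754 and 8077 UMIs. Pairs of libraries shared 1 to 9 kept barcodes. Class names stand for clusters that resemble the named cell type by a list of markers, and 7.57 to 12.1% of kept barcodes had no name. The classes were of unequal size and makeup between libraries. Monocyte/macrophage cells numbered 844, 772 and 1474, of which 682, 117 and 39 were resident macrophages, 8, 423 and 307 were Arg1 macrophages and 14, 42 and 658 were inflammatory macrophages. The sexes were also mixed unequally. Among monocyte/macrophage cells there were 810 cells with Xist and 6 with chromosome Y transcripts in PBS, 88 and 488 in 3-day WGP, and 572 and 594 in 7-day WGP. Sex, animal, library and treatment cannot be told apart here, and values within cells with Xist or within cells with Y transcripts are given for the main results, including those in which a call did not hold. Erythroid cells, which should express none of the 10 genes, held between 0 and 3 UMIs of any of them per library at a median depth of 6483 to 12276 UMIs. The free RNA in the droplets was estimated at 0.922 to 1.61% of a cell's UMIs and would add at most 1.11 CPM (UMIs of a gene scaled to the total UMIs of the class, in the usual CPM unit) to any of these genes.

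Of the 10 genes, 4 lie in neighbouring pairs. On GRCm38, Cd274 (ENSMUSG00000016496, chr19:29367455-29388095, plus strand) is followed after 22823 bases by Pdcd1lg2 (ENSMUSG00000016498, chr19:29410919-29471161, plus strand). Ctla4 (ENSMUSG00000026011, chr1:60887000-60915832, plus strand) is followed after 62094 bases by Icos (ENSMUSG00000026009, chr1:60977927-61000320, plus strand). The other 6 are Pdcd1 (chr1:94038305-94052553), Tigit (chr16:43648867-43664146), Lag3 (chr6:124904361-124911705) and Cd86 (chr16:36603869-36666081) on the minus strand, and Havcr2 (chr11:46454935-46481255) and Cd80 (chr16:38455561-38496335) on the plus strand. All 10 are protein-coding, and the reads, made from the 3′ end of transcripts, do not show where transcription started.

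Promoter sequence (250 bases before to 50 bases after the start, from RefSeq on GRCm38.p6) was matched for 7 of the 10 genes. The promoters of Cd274 (chr19:29367188-29367487) and Pdcd1lg2 (chr19:29410669-29410968), both on the plus strand, are shown because these neighbours had different levels in myeloid cells, and capitals mark each CG.
Cd274: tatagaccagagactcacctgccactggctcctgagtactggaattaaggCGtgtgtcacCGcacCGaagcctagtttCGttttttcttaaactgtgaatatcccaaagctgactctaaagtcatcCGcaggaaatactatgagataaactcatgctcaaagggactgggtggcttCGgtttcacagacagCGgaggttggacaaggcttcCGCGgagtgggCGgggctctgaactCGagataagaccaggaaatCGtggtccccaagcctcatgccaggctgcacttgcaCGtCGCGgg
Pdcd1lg2: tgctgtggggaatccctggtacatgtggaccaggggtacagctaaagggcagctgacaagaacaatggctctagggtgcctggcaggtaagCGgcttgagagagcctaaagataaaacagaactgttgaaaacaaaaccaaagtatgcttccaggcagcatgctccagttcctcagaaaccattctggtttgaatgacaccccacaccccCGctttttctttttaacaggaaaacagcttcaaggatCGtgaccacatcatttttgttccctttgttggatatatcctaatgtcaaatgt
The Cd274 stretch holds 15 CG pairs and that of Pdcd1lg2 holds 3. At least as many were found in 34.6% and in 76.7% of 32851 promoters, respectively. The promoter of Ctla4 (chr1:60908775-60909074, plus strand) is shown because Ctla4 had the largest count of UMIs among the receptors. Its RefSeq start lies inside the gene span given above, downstream of the first base of that span, and the gene has 3 annotated transcripts. Capitals mark TTTCCA, the reverse complement of the NFAT core TGGAAA.
Ctla4: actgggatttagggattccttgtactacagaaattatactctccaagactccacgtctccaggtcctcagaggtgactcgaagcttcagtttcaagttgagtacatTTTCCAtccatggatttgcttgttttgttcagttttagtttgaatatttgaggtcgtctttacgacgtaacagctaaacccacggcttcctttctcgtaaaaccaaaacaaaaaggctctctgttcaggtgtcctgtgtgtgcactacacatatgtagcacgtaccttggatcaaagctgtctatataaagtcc
On both strands, 21.4% of all promoters held the NFAT core TGGAAA, 8.3% a gamma-activated site (TTCNNNGAA), 3.44% the core of an interferon-stimulated response element and 1.63% an NF-kB site. Among the 7 promoters of these genes, the match in Ctla4, at bases 107 to 112 of the window, was the single match to any of them.

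Differences within a class are given as the log2 ratio of CPM to PBS, with 0.5 UMI added to both sides and an exact conditional binomial interval. A gene was called higher or lower past a fold of 2 when the libraries compared held at least 10 of its UMIs in the class and at least 20 cells each. Shares of cells with a UMI are given after each cell was thinned to 1000 UMIs, and without thinning. Values are listed in the order PBS, 3-day WGP, 7-day WGP.

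Cd274, the gene of PD-L1, was the member that differed most between libraries, and it did so in myeloid cells. In monocyte/macrophage cells it stood at 9.21 CPM (95% interval 7.34 to 11.4), 80.6 CPM (75.5 to 85.9) and 146 CPM (140.2 to 152), from 83, 944 and 2534 UMIs. Relative to PBS the log2 ratio was 3.12 (2.80 to 3.47) in 3-day WGP and 3.98 (3.67 to 4.32) in 7-day WGP. Cells with a Cd274 UMI were 1.42%, 7.64% and 13.3% after thinning, and 6.75%, 43.0% and 53.3% without it. The counts per cell moved in the same order, with 5 or more Cd274 UMIs in 0.237%, 6.61% and 12.3% of the cells.

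The monocyte/macrophage class is a mix of clusters that changed between libraries, so Cd274 was also taken in each. Arg1 macrophages (cluster 3), named for the arginase they express, had 107 CPM (99.8 to 115) in 3-day WGP and 194 CPM (182 to 207) in 7-day WGP, with 8 cells in PBS. Inflammatory macrophages (cluster 4) had 99.5 CPM (76.3 to 128) in 3-day WGP and 173 CPM (164 to 183) in 7-day WGP, with 14 cells in PBS. Both clusters are nearly empty in PBS, so no ratio to PBS was taken in them, while 7-day WGP exceeded 3-day WGP in each with intervals that did not overlap. Among cells that every library held in number, Ly6C-high monocytes (cluster 5), the blood-derived precursors of macrophages, had 11.5, 22.0 and 64.9 CPM, and the log2 ratio was 0.89 (-0.01 to 2.02) at 3 days and 2.43 (1.63 to 3.51) at 7 days, the latter past the limit against 6.91% of all genes. Resident macrophages had 5.27, 27.1 and 18.3 CPM, and the log2 ratio was 2.37 (1.63 to 3.08) at 3 days and 1.89 (0.26 to 3.04) at 7 days, the latter from 6 UMIs in 39 cells. Of all genes in resident macrophages, 5.08% and 10% were called higher. Ly6C-low monocytes, the patrolling cells of blood vessels, did not take part in this order. Their Cd274 level was 73.3, 85.3 and 79.3 CPM from 21, 10 and 11 UMIs in 49, 15 and 28 cells, and the log2 ratio at 7 days was 0.14 (-1.09 to 1.23). In monocyte/macrophage cells with Xist, Cd274 was at 9.05, 26.4 and 119 CPM, and in those with Y transcripts it was at 89.3 CPM in 3-day WGP and 168 CPM in 7-day WGP.

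Neutrophils had the highest Cd274 level of any class after WGP. It was 21.3 CPM (11.3 to 36.4) in PBS, 245 CPM (218 to 275) in 3-day WGP and 681 CPM (619 to 747) in 7-day WGP, from 13, 299 and 447 UMIs in 90, 240 and 196 cells. The log2 ratios were 3.47 (2.73 to 4.45) and 4.95 (4.21 to 5.92), and 4.44%, 20% and 43.9% of thinned cells had a UMI. In neutrophils with Xist, Cd274 was at 17.1, 31.2 and 545 CPM, from 24, 10 and 22 cells. The 3-day value there rested on 4 UMIs, and its interval of 8.51 to 79.9 CPM overlapped that of PBS. In neutrophils with Y transcripts, Cd274 was at 289 CPM in 3-day WGP and 655 CPM in 7-day WGP. Here too the clusters behind the class differed. Cluster 38, with 36, 13 and 6 cells, held 0, 3 and 1 Cd274 UMIs. Cluster 24, with 48, 68 and 71 cells, had 70.4 CPM (33.8 to 129.5), 62.7 CPM (37.2 to 99.2) and 223 CPM (162 to 299.8). Cluster 19, with 6, 159 and 119 cells, had 163, 396 and 1162 CPM. Within cluster 24 alone, which every library filled, the log2 ratio was -0.20 in 3-day WGP, so the 3-day difference of the whole class did not hold in it, while the 7-day level there was above both others, with intervals that did not overlap. The neutrophil list of 6 markers, all detected in every library, summed to 262800 CPM in PBS against 99070 and 101900 CPM after WGP, and the part of this difference in the Cd274 result was not tested.

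**Figure D1:**
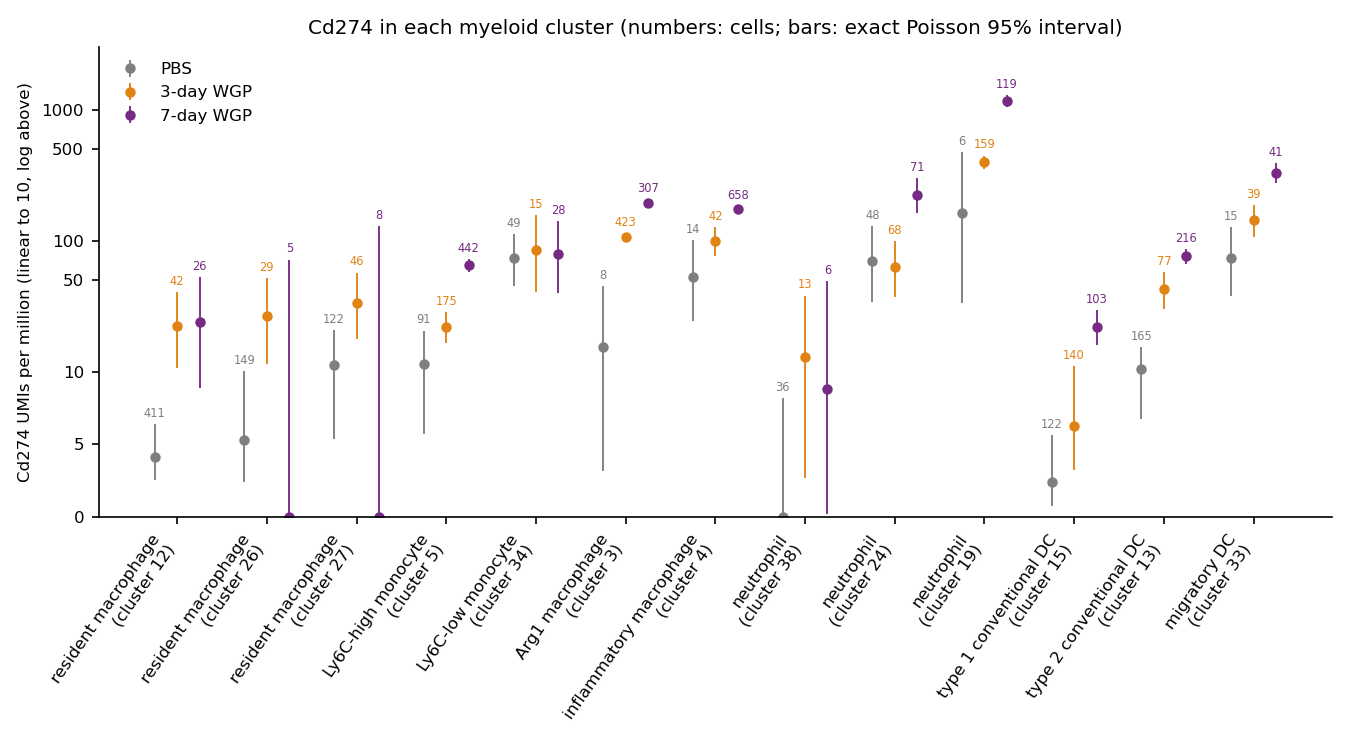
Cd274 in each myeloid cluster, in CPM on an axis that is linear to 10 and logarithmic above, with exact Poisson 95% intervals and the number of cells above each point. In cluster 19 of the neutrophils the 7-day WGP point is at 1162, and in Ly6C-low monocytes the 3 libraries overlap between 73.3 and 85.3.

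Conventional DCs (dendritic cells, which carry antigen to T cells) showed the same order at a lower level. Over all of them, migratory DCs included, Cd274 was at 9.10, 32.3 and 74.9 CPM. The log2 ratio was 1.82 (1.30 to 2.38) at 3 days and 3.03 (2.58 to 3.54) at 7 days. In barcodes of at most 10000 UMIs the 3-day log2 ratio was 0.07, within a fold of 2. Type 2 conventional DCs had 10.5, 42.4 and 75.7 CPM, and type 1 conventional DCs had 2.43, 6.30 and 21.9 CPM. Migratory DCs, which have taken up antigen and are leaving the tissue, stood highest among DCs at 143 CPM (107 to 188) in 3-day WGP and 329 CPM (277 to 389) in 7-day WGP, with 15 cells in PBS. In conventional DCs with Xist, Cd274 was at 10.0, 42.4 and 43.3 CPM (17 cells in 3-day WGP), and in those with Y transcripts at 5.68, 34.7 and 84.7 CPM. Lymphoid cells differed less. B cells were at 51.3, 46.1 and 45.3 CPM with overlapping intervals, and NK cells at 22.5, 19.5 and 30.3 CPM. T cells were at 21.1, 18.3 and 43.8 CPM, with a 7-day log2 ratio of 1.05 (0.63 to 1.51). In T cells with Xist, Cd274 was at 21.5, 12.2 and 24.6 CPM, a 7-day log2 ratio of 0.19 and within a fold of 2, and in those with Y transcripts it was at 18.6, 24.9 and 56.3 CPM.

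Pdcd1lg2, the gene of PD-L2 next to Cd274, had another distribution, with most of its UMIs in lymphoid cells. Of all its UMIs, 28.4% were in B cells, 16.4% in T cells and 10.3% in NK cells. ILC2 (type 2 innate lymphoid cells) had 61.1 CPM (48.3 to 76.3) in PBS and 51.2 CPM (37.6 to 68.1) in 3-day WGP, and B cells had 28.7, 25.5 and 24.8 CPM. NK cells were at 13.5, 32.0 and 38.1 CPM, and the log2 ratios of 1.18 (0.24 to 2.43) and 1.43 (0.52 to 2.66) were past the limit, the former not in cells with Y transcripts, where it was 0.61. T cells were at 15.7, 20.8 and 34.6 CPM, past the limit at 7 days with 1.13 (0.65 to 1.67). That T cell difference was absent in cells with Xist, at 17.5, 6.12 and 17.0 CPM, and present in cells with Y transcripts, at 17.2, 29.3 and 44.0 CPM.

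Monocyte/macrophage cells, where Cd274 was abundant, had little Pdcd1lg2, at 1.55 CPM (0.85 to 2.61), 1.37 CPM (0.781 to 2.22) and 4.08 CPM (3.19 to 5.15). The 7-day log2 ratio was 1.35 (0.55 to 2.34), from 14 UMIs in PBS and 71 in 7-day WGP. It turned to -0.68 in barcodes of at most 10000 UMIs, and the 7-day WGP library had the highest median UMIs per barcode. In neutrophils Pdcd1lg2 was at 6.56, 73.0 and 35 CPM, with 88 of the 89 UMIs of 3-day WGP and all 23 of 7-day WGP in cluster 19. Cluster 24 held 0 Pdcd1lg2 UMIs in each library, with exact Poisson upper limits of 26, 12.9 and 18.7 CPM. Conventional DCs had 3.25, 9.10 and 19.3 CPM, and the log2 ratio was 1.46 (0.54 to 2.49) at 3 days and 2.53 (1.78 to 3.46) at 7 days. Migratory DCs again stood highest among DCs, at 33 CPM (17.1 to 57.7) in 3-day WGP and 83.5 CPM (58.1 to 116) in 7-day WGP. Plasma cells went the other way, at 6.05, 4.66 and 1.91 CPM, with a 7-day log2 ratio of -1.57 (-3.20 to -0.40), against 15.8% of all genes called lower.

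Cd80 and Cd86, the ligands that CD28 and CTLA-4 share, were carried by different cells. After WGP, Cd80 had its highest levels in migratory DCs, at 44.0 CPM (25.2 to 71.5) in 3-day WGP and 78.7 CPM (54.2 to 111) in 7-day WGP, and in neutrophils, at 16.4 CPM (7.86 to 30.1), 46.8 CPM (35.4 to 60.6) and 67.0 CPM (48.7 to 90.0). The intervals of these 2 classes overlapped within each WGP library, so their order is not resolved. The neutrophil log2 ratios were 1.46 (0.53 to 2.65) and 1.98 (1.02 to 3.19), the former 0.79 in barcodes of at most 10000 UMIs. Within cluster 24 the Cd80 levels were 56.3, 31.4 and 76.1 CPM, with overlapping intervals, and the 3-day log2 ratio there was -0.85. Monocyte/macrophage cells had 8.21, 12.2 and 13.3 CPM of Cd80, within a fold of 2 of PBS. Conventional DCs as a whole had 10.2, 10.7 and 18.6 CPM, and B cells 9.38, 9.62 and 8.60 CPM.

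Cd86 was present in B cells, macrophages and DCs of every library. B cells were level at 109 CPM (103 to 115), 106 CPM (97.1 to 116) and 109.9 CPM (98.4 to 122). Type 1 conventional DCs were also nearly level at 129, 127 and 152 CPM, with intervals that overlapped. Type 2 conventional DCs were not. They had 44.8 CPM (36.7 to 54.1), 67.4 CPM (51.6 to 86.3) and 167 CPM (153 to 183), and the 7-day log2 ratio of 1.90 (1.60 to 2.22) was past the limit, against 5.27% of all genes called higher. Migratory DCs had 118 CPM (85.7 to 159) in 3-day WGP and 284 CPM (235 to 340) in 7-day WGP. In monocyte/macrophage cells Cd86 was at 108 CPM (102 to 115), 80.8 CPM (75.8 to 86.1) and 143 CPM (137 to 148), lower than PBS at 3 days and higher at 7 days, both within a fold of 2. Inflammatory macrophages had about the same level in every library, at 183, 181 and 201 CPM, with 14 cells in PBS, and Arg1 macrophages likewise at 46.3, 56.4 and 56.1 CPM, with 8 cells in PBS. Resident macrophages had 113, 87.3 and 155 CPM, and Ly6C-high monocytes 80.6, 125 and 136 CPM. The part that the changed numbers of these cells had in the class level was not tested.

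**Figure D2:**
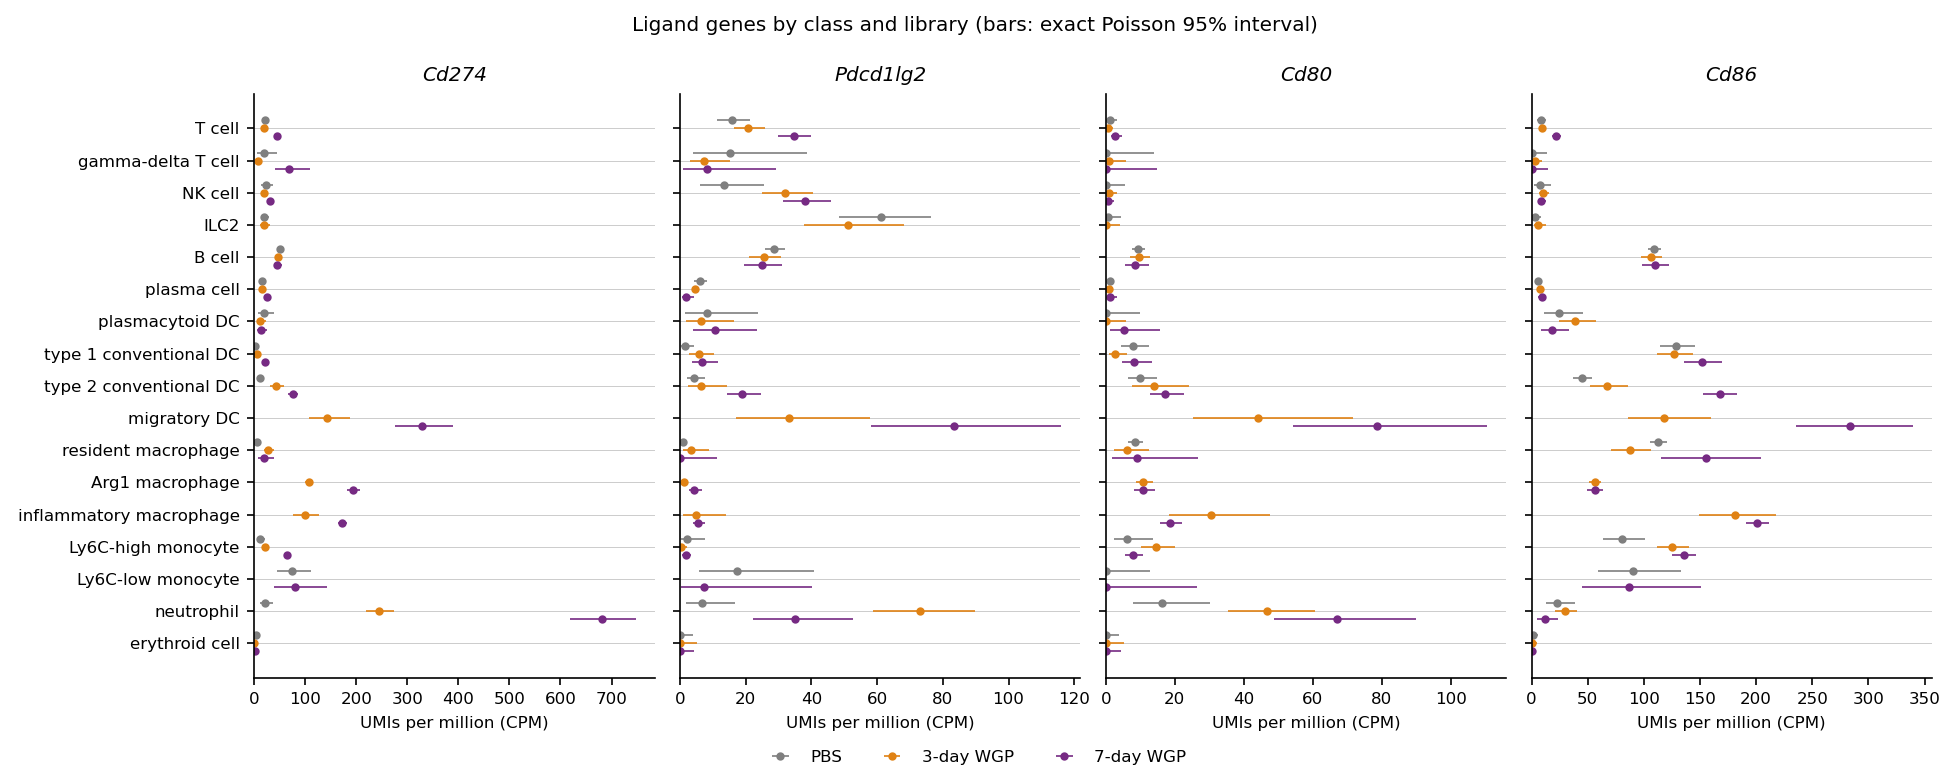
The 4 ligand genes in 17 classes, in CPM of the class with exact Poisson 95% intervals. Classes with under 20 cells in a library have no point there. Cd274 of neutrophils reaches 681 in 7-day WGP, whereas Cd86 of B cells stays between 106 and 109.9.

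Counted together, 1 of the 4 ligands (Cd274) was called higher in monocyte/macrophage cells of 3-day WGP, where 6.31% of all genes tested were called higher and 13.5% lower. At 7 days 2 were called higher (Cd274 and Pdcd1lg2), against 6.53% of all genes, and none lower, against 18.2%. In conventional DCs 2 of 4 were called higher at 3 days (Cd274 and Pdcd1lg2), against 4.01% of all genes, and 3 at 7 days (Cd86 added), against 5.06%. This class includes the migratory DCs, 15, 39 and 41 in number, which had the highest Cd274 and Pdcd1lg2 levels among DCs after WGP. The part of their changed number in these calls was not tested. The call of Cd86 was lost at a cluster resolution of 0.8 (0.24), within cells with Xist (0.87) and within cells with Y transcripts (0.81), that of Cd274 at 3 days in barcodes of at most 10000 UMIs, and that of Pdcd1lg2 in monocyte/macrophage cells reversed there. In neutrophils 3 of 4 (Cd274, Pdcd1lg2 and Cd80) were called higher at both times, against 22.1% of all genes at 3 days and 19.1% at 7 days. Each group of 4 is small, and the ratios of both times share the PBS library. The median log2 ratio over all genes tested was -0.14 and -0.25 in monocyte/macrophage cells and 0.33 and 0.23 in neutrophils.

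Among the receptors, Ctla4 differed most in T cells. It stood at 62.0 CPM (52.8 to 72.3) in PBS, 86.1 CPM (76.8 to 96.2) in 3-day WGP and 232 CPM (219 to 245) in 7-day WGP, from 162, 311 and 1253 UMIs in 522, 621 and 641 cells. The log2 ratio was 0.47 (0.19 to 0.76) at 3 days and 1.90 (1.67 to 2.15) at 7 days. Thinned cells with a Ctla4 UMI were 6.51%, 6.44% and 13.7%, and 16.3%, 15.5% and 38.2% without thinning. The order held in T cells with a Cd8 UMI and no Cd4, at 14.7, 31.8 and 79.4 CPM. In those with a Cd4 UMI and no Cd8, Ctla4 was at 82.2, 81.9 and 239 CPM. Cells with a Foxp3 UMI were counted apart from both of these groups. T cells with a Foxp3 UMI, the marker of regulatory T cells, which hold much CTLA-4, had 654 CPM (467 to 890.1), 819.6 CPM (696 to 959) and 910.3 CPM (844 to 980.2). There were 12, 21 and 54 of these cells, too few in PBS for a ratio, and the intervals of neighbouring libraries overlapped.

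The 7-day difference in T cells lay in cells with Y transcripts. Their Ctla4 level was 70.1 CPM (51.9 to 92.7), 79.9 CPM (65.6 to 96.4) and 354 CPM (332 to 376), from 183, 220 and 284 cells. In T cells with Xist it was 68.4 CPM (54.7 to 84.5), 85.7 CPM (69.6 to 104) and 44.2 CPM (34.4 to 55.8), from 144, 145 and 208 cells, so 7-day WGP was the lowest library there, with a log2 ratio of -0.63. The PBS and 7-day intervals with Xist overlapped. Of the 54 Foxp3 cells of 7-day WGP, 38 carried Y transcripts, at 974 CPM of Ctla4. These 38 cells held 620 of the 1005 Ctla4 UMIs of T cells with Y transcripts in that library. Among T cells with Y transcripts, those with a Cd4 UMI and no Cd8 had 131, 60.2 and 329 CPM. Those with a Cd8 UMI and no Cd4 had 30.8, 29.1 and 130 CPM. Among T cells with Xist, the same Cd4 group had 64.4, 109 and 93.9 CPM, and the Cd8 group had 12.3, 17.8 and 25.6 CPM. Cells with Xist and no or mixed Cd4 and Cd8 UMIs went the other way at 7 days, at 43.9, 4.6 and 33 CPM. In each of these groups with Xist the PBS and 7-day intervals overlapped. T cells with Xist and a Foxp3 UMI were few, and their part in the level with Xist was not tested. The other receptors split in a like manner. Pdcd1 was at 20, 27.8 and 52.1 CPM in T cells with Y transcripts and at 31.8, 9.62 and 9.46 CPM in those with Xist. Icos was at 190.4, 208 and 247 CPM with Y transcripts and at 95.5, 98.8 and 80.7 CPM with Xist. Whether these are the sexes or single animals cannot be told apart.

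**Figure D3:**
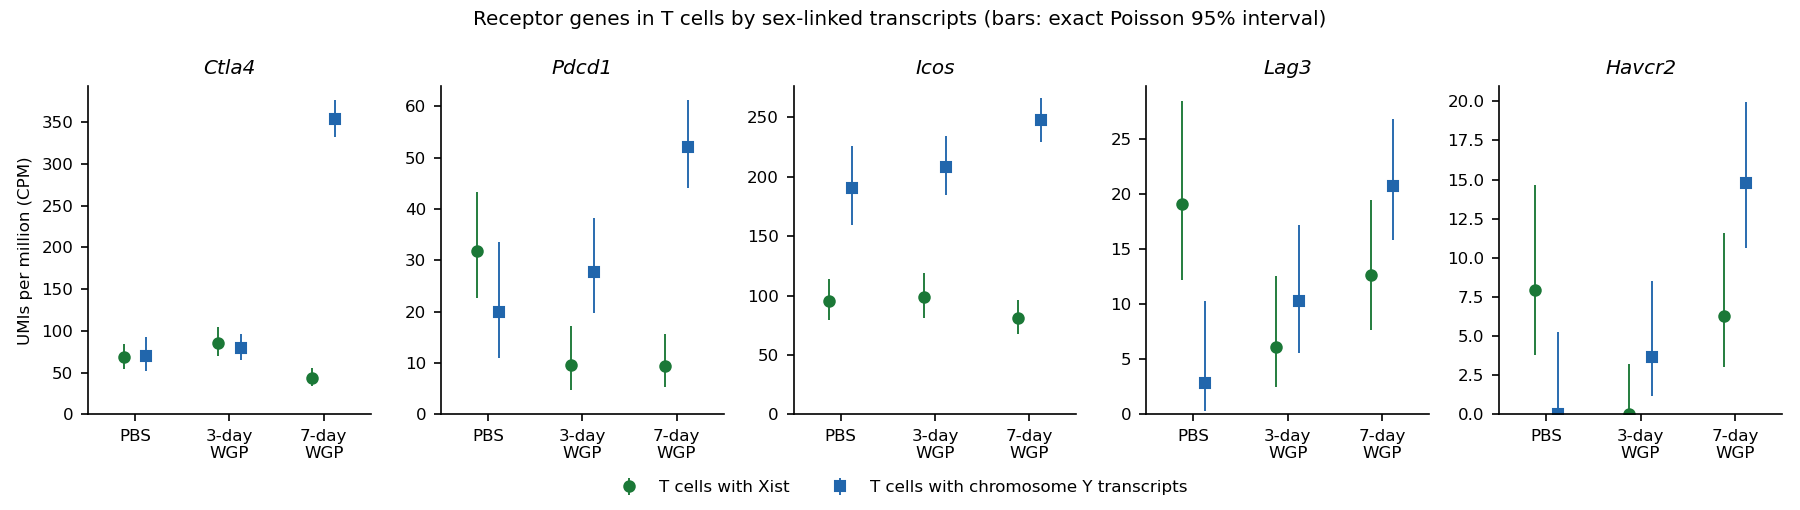
The 5 receptor genes with enough UMIs in T cells, in CPM with exact Poisson 95% intervals, for cells with Xist (circles) and cells with chromosome Y transcripts (squares). For Ctla4 the square of 7-day WGP stands at 354, while the other 5 points lie between 44.2 and 85.7.

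Gamma-delta T cells, early responders that make IL-17 in tissues, had the highest Ctla4 level of the named classes in 7-day WGP. It was 26.4 CPM (10.6 to 54.4), 135 CPM (113 to 160) and 559 CPM (469 to 660), from 7, 129 and 138 UMIs in 55, 226 and 43 cells. The log2 ratios were 2.26 (1.27 to 3.70) and 4.31 (3.32 to 5.75), against 5.15% and 6.94% of all genes called higher. In 7-day WGP, 11 of the 43 cells had 5 or more Ctla4 UMIs, and the cell with the most held 13.8% of them. Here the 7-day level was alike in cells with Xist (603 CPM, 33 UMIs in 10 cells) and with Y transcripts (546 CPM, 66 UMIs in 21 cells). In PBS the 15 cells with Xist and the 20 with Y transcripts held 2 Ctla4 UMIs each. NK cells had 5.99 CPM (1.63 to 15.3), 17.6 CPM (12.5 to 24.2) and 24.5 CPM (19.2 to 30.8), from 4, 38 and 72 UMIs. Ctla4, Lag3 and Icos had enough UMIs in NK cells, and of these Ctla4 was called higher at both times, against 5.07% and 6.36% of all genes. Neither call held in NK cells with Y transcripts, which had 19, 6.54 and 29.2 CPM from 3, 8 and 42 UMIs, log2 ratios of -1.67 and 0.41. NK cells without any UMI of the T cell list (Cd3e, Cd3d, Cd3g, Trac, Trbc2 and Lat) had 0 UMIs in PBS and 3-day WGP (upper limits 16.1 and 4.90 CPM) and 18.2 CPM in 7-day WGP.

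Plasma cells, which secrete antibody, held 35.4% of all Ctla4 UMIs, more than the 28.2% in T cells. Their level was 61.5 CPM (55.3 to 68.1), 99.3 CPM (94.5 to 104) and 77.3 CPM (67.9 to 87.7), within a fold of 2 of PBS, and 52.7%, 74.0% and 56.8% of unthinned cells had a UMI. These cells are deep, and after thinning the shares were 5.32%, 9.15% and 2.70%. Without the plasma cells that had a T cell list UMI the levels were 49.1, 89.8 and 69.0 CPM. Plasma cells with Xist had 38.2 CPM in PBS (79 cells) and 33.7 CPM in 3-day WGP (23 cells). Those with Y transcripts had 86.7, 102 and 76.3 CPM, from 94, 368 and 66 cells. Within each, the intervals of PBS and 3-day WGP overlapped. The level was present in both clusters of plasma cells, at 86.6, 101 and 106 CPM in cluster 14 and 44.6, 90.5 and 67.5 CPM in cluster 18. B cells had 25.0, 37.1 and 40.4 CPM.

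Pdcd1, the gene of PD-1, was highest in gamma-delta T cells, at 196 CPM (146 to 257), 188 CPM (162 to 218) and 316 CPM (250 to 394). The 7-day log2 ratio was 0.68 (0.16 to 1.22), within a fold of 2, and 49.1%, 43.8% and 62.8% of unthinned cells had a UMI. The cluster of T cells that shared gamma-delta genes came next in PBS, at 77.9 CPM (52.2 to 112), and had 84.5 CPM (66.3 to 106) in 3-day WGP. ILC2, innate cells of type 2 immunity, had 30.6 CPM (21.7 to 41.8) in PBS and 102 CPM (82.8 to 125) in 3-day WGP. Pdcd1 was the single receptor called in ILC2 at 3 days, with a log2 ratio of 1.74 (1.19 to 2.32), against 3.06% of all genes called higher. The 7-day WGP library held 10 ILC2, too few for a ratio. In T cells as a whole Pdcd1 was at 25.6 CPM (19.9 to 32.6), 22.7 CPM (18.1 to 28.2) and 40.5 CPM (35.3 to 46.2), a 7-day log2 ratio of 0.65 (0.26 to 1.08). Those with a Cd8 UMI and no Cd4 had 6.67, 23.1 and 29.2 CPM, from 5, 29 and 60 UMIs, with log2 ratios of 1.68 (0.40 to 3.52) and 2.01 (0.83 to 3.81). These were past the limit, against 4.02% and 5.72% of all genes, whereas T cells with a Cd4 UMI and no Cd8 had 41.7, 24.2 and 61.9 CPM, within a fold of 2.

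Icos was also high in gamma-delta T cells, and most of its differences were within a fold of 2. Gamma-delta T cells had 347 CPM (279.8 to 426), 358 CPM (321 to 398) and 563 CPM (473 to 664). T cells had 137 CPM (123 to 152), 162 CPM (149.6 to 176) and 192 CPM (181 to 204), with log2 ratios of 0.25 (0.05 to 0.44) and 0.49 (0.31 to 0.67). ILC2 had 129 CPM (110.3 to 151) in PBS and 165 CPM (139 to 193) in 3-day WGP. The T cells were not uniform. In cluster 10 Icos was lower after WGP, at 111, 36.1 and 35.4 CPM, and the log2 ratio was -1.62 (-2.15 to -1.11) at 3 days and -1.64 (-2.31 to -1.03) at 7 days, against 2.57% and 3.33% of all genes called lower, while in cluster 11 it was at 287, 436 and 449 CPM. Cells of cluster 10 with Xist, 32, 112 and 82 in number, had 47.6 CPM (23.8 to 85.2), 22.6 CPM (13.6 to 35.3) and 31.1 CPM (18.4 to 49.1), with overlapping intervals. In those with Y transcripts Icos was at 166 CPM (117 to 230) in 64 cells of PBS. It was at 63.1 CPM (36.8 to 101) in 51 cells of 3-day WGP, with intervals that did not overlap. Conventional DCs had 6.07, 25.1 and 27.8 CPM of Icos, past the limit at both times. Those with Y transcripts had 18.5, 23.7 and 31.0 CPM, log2 ratios of 0.32 and 0.70, so neither call held in them. DCs that also carried a T cell list UMI, which were 11.6%, 25.4% and 15.3% of them, had 36.0, 73.4 and 119 CPM. DCs without such a UMI had 1.74, 4.48 and 4.48 CPM. The T cell list summed to 141, 380 and 264 CPM over all conventional DCs, with all 6 of its genes detected in each library. Ctla4 in conventional DCs was at 4.55, 8.78 and 14.8 CPM over all. Without a T cell list UMI it was at 2.73, 0.895 and 0.943 CPM, lower after WGP, whereas Icos in the same cells was higher.

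Lag3 and Havcr2 had their highest levels outside T cells. Lag3 was highest in plasmacytoid DCs, the producers of type I interferon, at 203 CPM (159.8 to 255), 245 CPM (207 to 287) and 227 CPM (189 to 270.2), with overlapping intervals. These cells were 48, 83 and 54 in number and held 27.7% of all Lag3 UMIs. Type 2 conventional DCs were next in 3-day WGP, at 22.2 CPM (16.6 to 29.0), 73.9 CPM (57.4 to 93.7) and 26.6 CPM (21.0 to 33.3), and the 3-day log2 ratio of 1.73 (1.20 to 2.28) was past the limit, against 4.41% of all genes called higher. In these cells with Y transcripts Lag3 went the other way, at 134.5 CPM (90.1 to 193), 88.1 CPM (64.3 to 118) and 30.3 CPM (22.9 to 39.3) from 21, 42 and 132 cells, a 3-day log2 ratio of -0.62. Plasma cells had 9.24, 10.5 and 31.5 CPM, with a 7-day log2 ratio of 1.76 (1.28 to 2.27), against 2.32% of all genes called higher and a median of -0.47 over all genes. T cells had little Lag3, at 11.9, 8.30 and 17.0 CPM with overlapping intervals between PBS and each WGP library. Those with a Cd4 UMI and no Cd8 had 22.8, 6.92 and 5.90 CPM, from 18, 6 and 6 UMIs.

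Havcr2, the gene of TIM-3, was held mainly by myeloid cells. Type 1 conventional DCs, which present antigen to CD8 T cells, held 39.9% of its UMIs. With all their cells pooled they were at 101 CPM (87.7 to 116), 97.1 CPM (83.6 to 112) and 99.9 CPM (86.7 to 115), with overlapping intervals. These pooled values do not show whether the libraries were alike within cells with Xist or within cells with Y transcripts. Ly6C-low monocytes had a level like that of the pooled type 1 conventional DCs, at 122, 128 and 129.7 CPM, from 35, 15 and 18 UMIs. Ly6C-high monocytes went from 31.4 CPM (21.2 to 44.8) in PBS to 4.01 CPM (1.92 to 7.37) and 8.51 CPM (6.08 to 11.6), log2 ratios of -2.92 (-4.17 to -1.90) and -1.89 (-2.60 to -1.15), against 6.2% and 8.42% of all genes called lower. Over all monocyte/macrophage cells Havcr2 was at 24.6, 6.74 and 8.92 CPM, and the log2 ratio was -1.86 (-2.26 to -1.49) at 3 days and -1.47 (-1.77 to -1.16) at 7 days. In barcodes of at most 10000 UMIs these were -0.91 and -0.92, and in cells with Xist the 3-day value was -0.90, all within a fold of 2. Arg1 macrophages of 3-day and 7-day WGP were at 5.32 and 6 CPM. In neutrophils Havcr2 was at 4.92, 19.7 and 28.9 CPM, from 3, 24 and 19 UMIs, and cluster 19 held 3, 22 and 14 of them. T cells had 3.83 CPM (1.84 to 7.04), 1.38 CPM (0.449 to 3.23) and 10.9 CPM (8.31 to 14.1), from 10, 5 and 59 UMIs. T cells of 7-day WGP with Y transcripts held 42 Havcr2 UMIs. Of these, 36 were in 38 cells with a Foxp3 UMI, at 56.5 CPM. All 59 Havcr2 UMIs of 7-day WGP were in T cells that also had a UMI of Lyz2, Cst3, Csf1r or Fcer1g, genes of myeloid cells. Such T cells were 50.8%, 64.3% and 83.3% of the class. The 107 T cells of 7-day WGP without such a UMI held 183 of Ctla4, at 340 CPM.

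Tigit, the gene of an inhibitory receptor of T and NK cells, was near the limit of detection. It had 6, 22 and 22 UMIs over all kept barcodes. NK cells reached 2.72 CPM, the highest level of the classes with at least 20 cells. In 7-day WGP the intervals of NK cells (1.17 to 5.36 CPM) and T cells (0.639 to 2.92 CPM) lay above that of monocyte/macrophage cells. The latter held 0 UMIs there, with an upper limit of 0.212 CPM. Within NK cells and within T cells the intervals of the libraries overlapped.

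**Figure D4:**
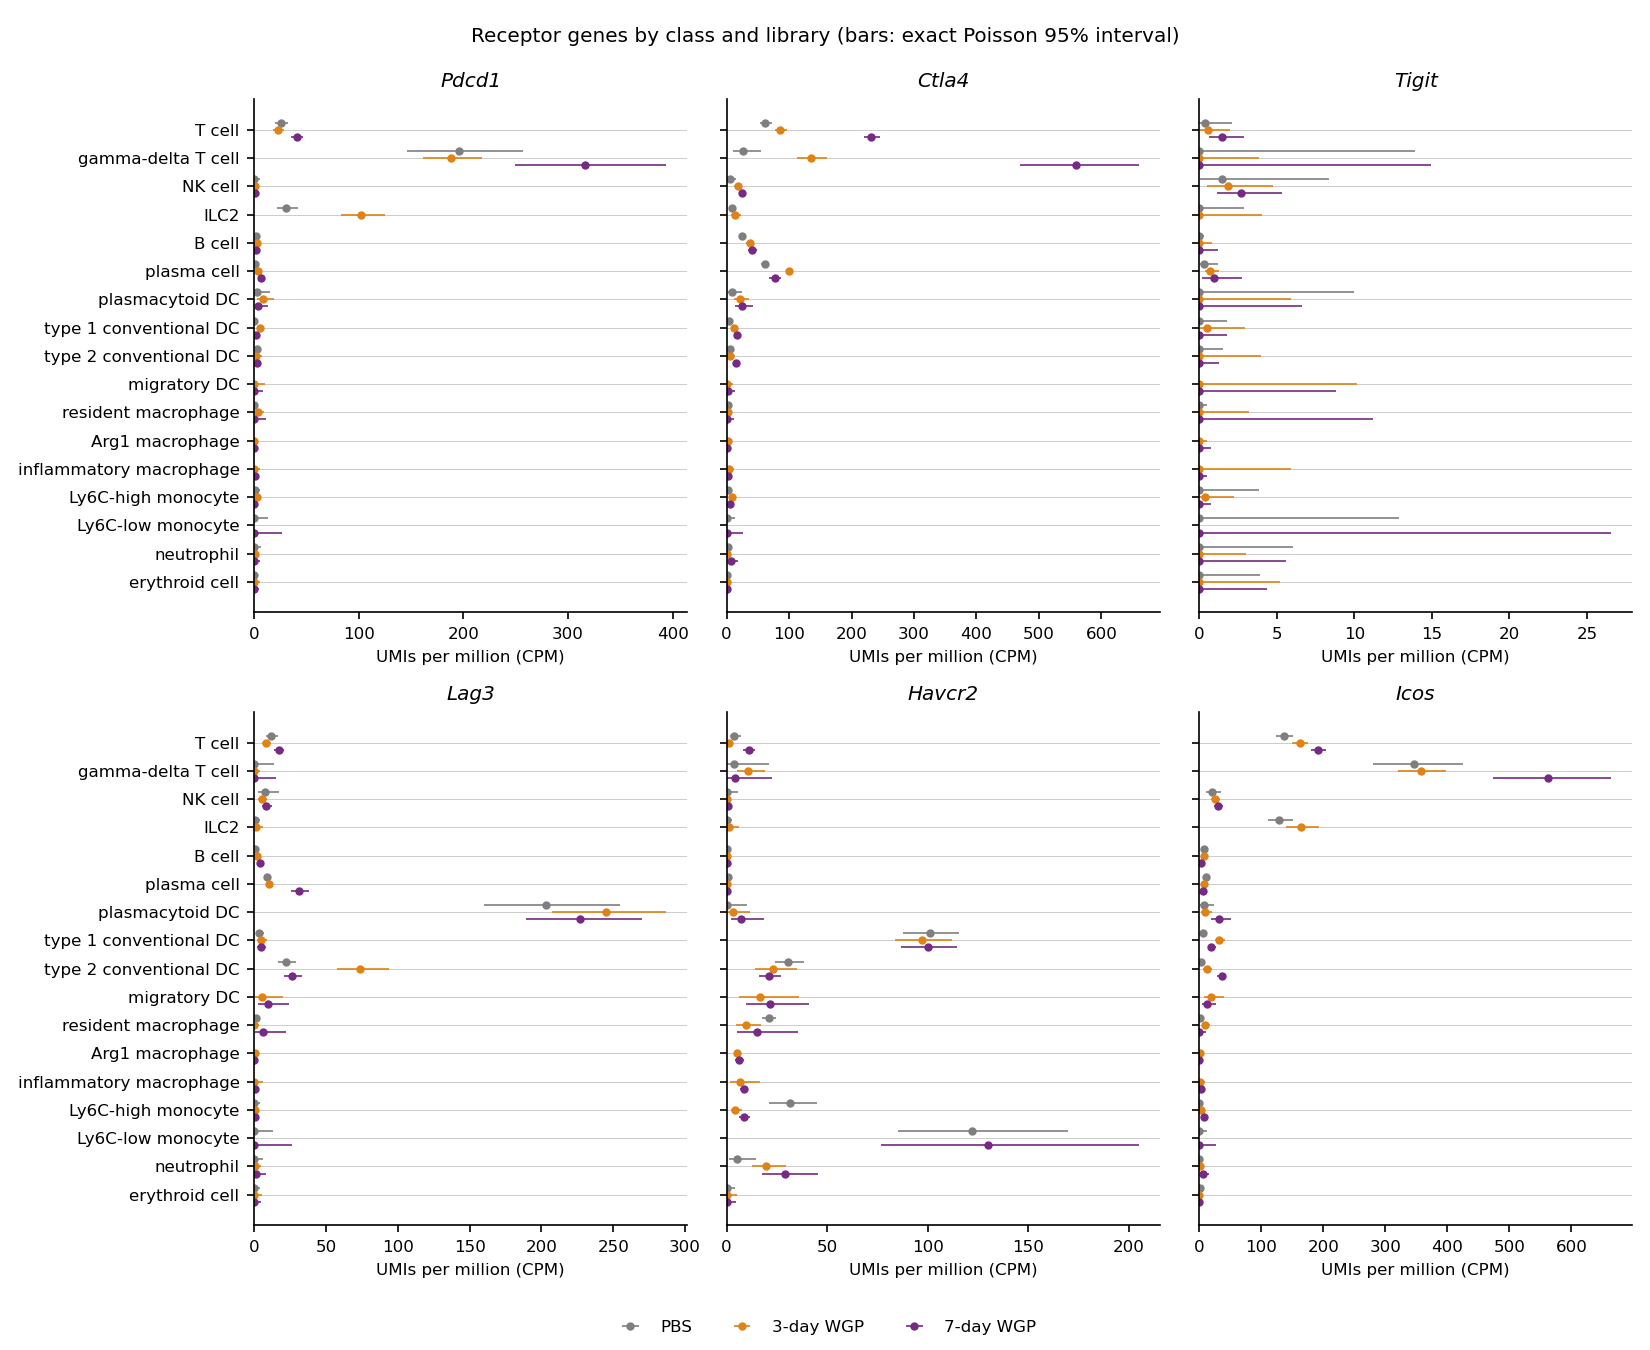
The 6 receptor genes in 17 classes, in CPM of the class with exact Poisson 95% intervals and a separate axis for each gene. Classes with under 20 cells in a library have no point there. The gamma-delta T cell point for Ctla4 in 7-day WGP is at 559, and the 3 plasmacytoid DC points for Lag3 lie between 203 and 245.

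In T cells 1 of the 6 receptors was called at 3 days (Havcr2, lower), against 2.14% of all genes called lower and 2.53% higher. At 7 days 2 were called higher (Ctla4 and Havcr2), against 5.88% of all genes, and none lower, against 2.71%. In T cells with Xist both were below PBS at 7 days, with log2 ratios of -0.63 and -0.33. The Havcr2 call at 3 days rests on 15 UMIs, and its interval, -3.37 to 0.22, includes 0. The 38 other genes of the pathway list were read in the same way. Of 9 costimulatory receptors tested in T cells, none was called at 3 days and 2 were called higher at 7 days, against the same shares of all genes. These were Tnfrsf9 (4-1BB), from 19.9 to 97.1 CPM, and Tnfrsf4 (OX40), from 80.0 to 263 CPM, both receptors induced on activated T cells. Of 10 genes tested at 7 days in the list's group of inhibitory receptors, Cd160 was called higher, from 59.7 to 142 CPM. That group also names the surface enzymes Entpd1 and Nt5e. In NK cells the same gene was called lower, from 142 to 65.3 CPM, against 4.66% of all genes, whereas Tnfrsf9 was called higher, from 56.9 to 122 CPM.

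Of the 18 genes listed as ligands or counter-receptors, among them the enzyme Ido1, 12 were tested in monocyte/macrophage cells. At 3 days 3 were called higher and 1 lower, against 6.31% and 13.5% of all genes. At 7 days 7 were called higher and 1 lower, against 6.53% and 18.2%, with a median log2 ratio of 1.44 over the 12 tested at 7 days against -0.25 over all genes. Cd200, a ligand that restrains myeloid cells, had a log2 ratio of 3.42 (2.35 to 5.01) at 3 days and 2.49 (1.40 to 4.09) at 7 days. Tnfsf9, the ligand of 4-1BB, was at 11.2, 43.6 and 31.2 CPM. Cd276 (B7-H3) went the other way, from 7.55 CPM in PBS to 1.37 and 0.403 CPM. In conventional DCs 5 of 12 tested ligands were called higher at 7 days, against 5.06% of all genes, and none lower, against 6.1%. Among them was Cd40, which receives help from T cells, from 22.5 to 121 CPM. Ceacam1, an inhibitory receptor, was at 39.3 CPM in PBS and 124 CPM in 3-day WGP in monocyte/macrophage cells.

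Over whole libraries the levels reflect both the level in each class and the number of cells of each class. Cd274 was at 24.5, 40.7 and 97.7 CPM over all kept barcodes, log2 ratios of 0.74 (0.63 to 0.84) and 2.00 (1.90 to 2.09). With the class makeup of PBS it would be at 33 and 51.3 CPM, log2 ratios of 0.43 and 1.07. Ctla4 was at 25.9, 52.8 and 52.2 CPM, log2 ratios of 1.03 and 1.01, and would be at 42.5 and 57.1 CPM with the makeup of PBS. Cd86 was at 72.2, 44.2 and 98.9 CPM, and its 3-day log2 ratio of -0.71 (-0.79 to -0.63) became -0.15 with the makeup of PBS. Havcr2 was at 12.7, 7.12 and 13 CPM. Pdcd1lg2 was at 14.4, 11.3 and 14.5 CPM, so its library level hardly differed at 7 days although single classes did.

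**Figure D5:**
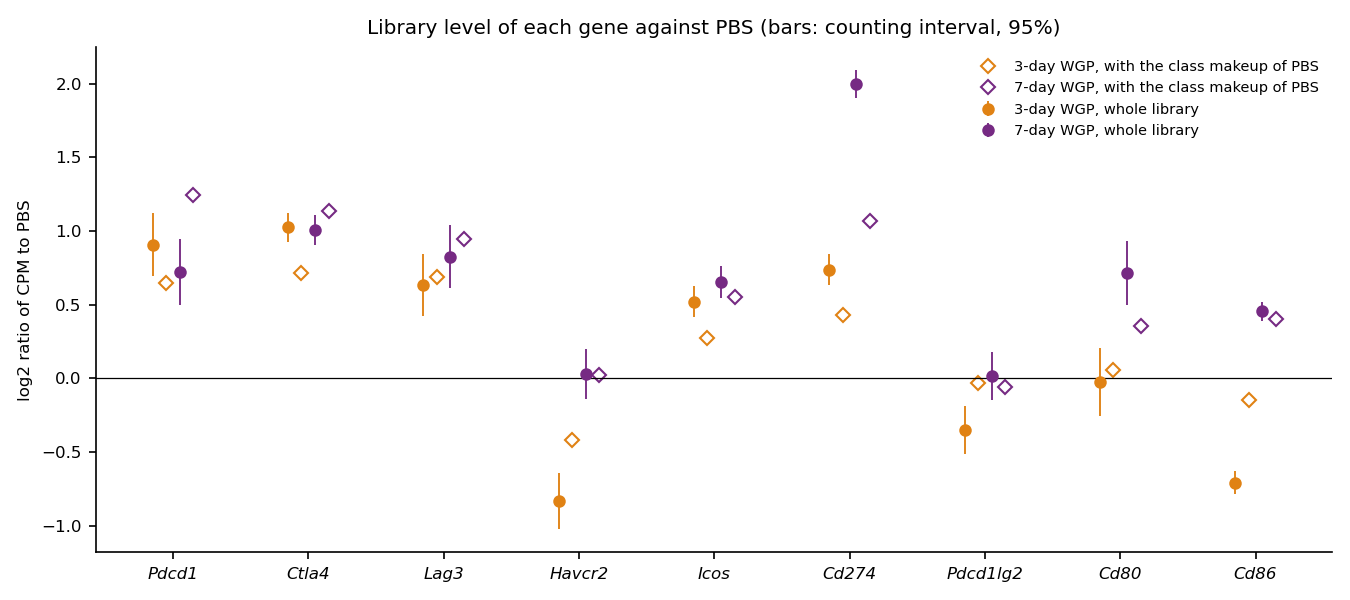
Library level of each gene as a log2 ratio to PBS (vertical axis), for the whole library (filled circles, bars are 95% counting intervals) and for the same class levels weighted by the class makeup of PBS (open diamonds, without interval). Tigit is left out for its few UMIs. The filled circle of Cd274 in 7-day WGP is at 2.00 and its diamond at 1.07.

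The genes most like each member were found by Pearson correlation of log2(CPM + 10) over 50 sums of class and library, among 7118 genes. The sums share libraries and depths, so these values are descriptions. Pdcd1 was most like Tcrg-C1 (0.965), Acsbg1 (0.963) and Podnl1 (0.955), the first a constant gene of the gamma-delta receptor. Icos was most like Camk4 (0.967), Lat (0.965) and Cxcr6 (0.958). Ctla4 had weaker neighbours, Slamf1 (0.797), Dusp4 (0.785) and Ehd3 (0.784). Lag3 was most like Hoxa7 (0.914), Cd300c (0.909) and Cd209d (0.893), and Havcr2 like AC163018.1 (0.852) and Hfe (0.835). Among the ligands, Cd86 was most like Gm6377 (0.942) and the MHC class II genes H2-Aa (0.902) and H2-Ab1 (0.896). Cd80 was most like Marcksl1 (0.917), AA467197 (0.827) and Gdap10 (0.821), and Cd274 like Gdap10 (0.838), Gbp5 (0.823), an interferon-induced GTPase, and Pde4b (0.803). Pdcd1lg2 was most like Dusp5 (0.762), 4930523C07Rik (0.756) and Dennd4a (0.753). Tigit reached 2.72 CPM at most, and its nearest genes, Klra7 (0.777), Klrb1f (0.767) and Gm14029 (0.759), rest on few UMIs.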

How the data were processed

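Single-cell 3′ libraries of sorted CD45+ pancreas cells were given as deposited UMI counts per gene and barcode, which the authors made with Cell Ranger 3.1.0 on mm10. Barcodes with at least 1000 UMIs and at most 30% mitochondrial UMIs were kept, which removed 206 to 440 barcodes per library on the mitochondrial limit. Counts were normalised with sctransform 0.4.2 in Seurat 5.3.0 (R 4.3.3), and 30 principal components were clustered at resolution 2, with the 10 genes, the 38 further genes of the pathway, Xist and Y genes left out. No cell type labels were used from the study. Clusters were named from marker lists, with naming thresholds set after the clusters were seen, so a name means that the cells resemble that type, and 12.1, 8.12 and 7.57% of barcodes stayed unnamed. Scrublet marked 0, 1 and 1 barcodes as doublets and so did not work here. No doublets were removed, and an alternative left out the 220, 190 and 139 highest scores.

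Counts were summed per class and library and given as CPM with exact Poisson 95% intervals. Ratios used a prior of 0.5 UMI, at least 10 UMIs and at least 20 cells, a fold of 2 as the limit, and 3 UMIs as the floor for a count of 0. Cells are not replicates and there was 1 library per group, so no p-value was computed. Cells with Xist are those with an Xist UMI and no Y transcript, and cells with Y transcripts the converse. The ratio and interval scripts were tested on simulated data. All 3 matrices were used and 0 columns of other samples were present. The 10 genes and the lists were chosen with earlier results of these data known. All 10 are named, with up to 4 called pathway genes per role and comparison and the 3 genes most correlated with each member, of which 1 is not reported here. Depth was 48219246 to 56849043 UMIs per library, and intervals cover counting error only. Alternatives covered UMI, mitochondrial and ribosomal limits, doublet scores, normalisation, resolution, TMM factors (edgeR 4.0.16), free RNA, and cells with Xist or Y transcripts. Python 3.11.15, numpy 2.4.6, scipy 1.17.1, pandas 2.3.3 and scanpy 1.11.5 were used.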

Additional observations from a re-analysis of the deposited data

Results flagged for a closer look

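Cd86 stood on opposite sides of PBS at the 2 times after WGP in monocyte/macrophage cells and in resident macrophages. In monocyte/macrophage cells its log2 ratio to PBS was -0.424 at 3 days and 0.395 at 7 days, and in resident macrophages it was -0.361 and 0.475. With Xist, monocyte/macrophage cells had 108, 89.7 and 128 CPM, and resident macrophages had 112, 95.6 and 148 CPM. In both, the 3-day interval overlapped that of PBS. The difference between the times was not tested, since each time had 1 library, and both ratios share the PBS library.

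Barcodes with at most 100 UMIs, which hold free RNA and no cell, were in no comparison above, and several of the genes were higher in them after WGP. The log2 ratio to PBS in these barcodes was 1.22 at 3 days and 1.86 at 7 days for Ctla4, 1.05 and 1.66 for Lag3, 1.52 at 7 days for Pdcd1, 1.38 at 7 days for Icos and 1.97 at 7 days for Cd274. The level of Cd274 there was 30.5, 58.6 and 120 CPM in PBS, 3-day WGP and 7-day WGP.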

How the results depend on the processing

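Of 192 ratios, 82 were past a fold of 2, and 81 of the 82 stayed so with a minimum of 2000 UMIs, where Cd80 in T cells at 7 days was at 0.97. Of the called ratios that could be computed, 10 of 41 were no longer past it in barcodes of at most 10000 UMIs, 11 of 32 in cells with Xist, 17 of 49 in cells with Y transcripts and 14 of 77 with log-normalised values. The counts of called receptors in T cells at 3 days went from 1 to 0 in barcodes of at most 10000 UMIs and with log-normalised values, and to 3, all lower, in cells with Xist. At 7 days they went from 2 to 1 (lower) in cells with Xist and to 4 (higher) in cells with Y transcripts. In NK cells the count of 1 at 3 days became 0 in barcodes of at most 10000 UMIs and 2, both lower, in cells with Y transcripts, where the 7-day count became 0. Called ligands in conventional DCs at 3 days went from 2 to 0 in barcodes of at most 10000 UMIs and to 1 with log-normalised values, and in monocyte/macrophage cells at 7 days from 2 to 1 in barcodes of at most 10000 UMIs. The causes were not tested.

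The log2 ratio changed sign in these cases. In cells with Xist it was -0.63 for Ctla4, -0.33 for Havcr2 and -0.045 for Pdcd1lg2 in T cells at 7 days, -0.56 for Icos in monocyte/macrophage cells at 7 days and 0.16 for Lag3 there at 3 days. In cells with Y transcripts it was -1.67 for Ctla4 in NK cells, -0.87 for Pdcd1 in conventional DCs, and -1.003 for Icos and -0.62 for Lag3 in type 2 conventional DCs at 3 days, and -0.0040 for Ctla4 in the last at 7 days. In barcodes of at most 10000 UMIs it was 0.41 for Havcr2 in resident macrophages at 3 days and -0.68 for Pdcd1lg2 in monocyte/macrophage cells at 7 days. With log-normalised values it was -0.050 for Ctla4 in type 1 conventional DCs at 7 days, -0.049 for Havcr2 in neutrophils at 3 days and 0.12 for Lag3 in monocyte/macrophage cells at 7 days. Without the highest Scrublet scores it was -0.14 for Icos in monocyte/macrophage cells at 7 days. In settings chosen after seeing the data, it was -0.20 for Cd274 and -0.85 for Cd80 in neutrophils of cluster 24 at 3 days, and -1.43 for Ctla4 at 7 days in conventional DCs without a T cell list UMI. No paired analysis was possible because each group had 1 library. For the same reason no library could be left out, and the spread between mice is unknown.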
